A study of Arabidopsis thaliana with 19 samples.

Results

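Levels of 3 lipid transfer protein transcripts were followed across 19 ATH1 arrays of Arabidopsis thaliana seedlings. The members are the genes AT4G12490 and AT5G55450, read from the 1 probe set that the array annotation pairs with each, and probe set 254805_at, taken as that of EARLI1 (AT4G12480), 3 of 22810 probe sets in all. The array annotation used here does not list that last probe set, so its link to EARLI1 comes from the choice of members alone, and it is called the EARLI1 probe set. The members were chosen with their levels on these same arrays known, and no single comparison was named as the basis. Their levels and changes are therefore given as a description, without p-values.

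All plants were 14 days old and were kept at 20 °C under a day of 10 h and a night of 14 h, and RNA came from seedlings whose cotyledons and hypocotyls had been cut off. One experiment set 3 wild type arrays (WT_MYB29_MYB76) beside 2 each of plants overexpressing MYB29 (MYB29_OE) or MYB76 (MYB76_OE). Another set 2 wild type arrays (WT_ATR1_MYB51) beside 2 each of plants overexpressing ATR1 (ATR1_OE) or MYB51 (MYB51_OE). The last held lines whose titles name the 35S promoter of cauliflower mosaic virus, which is active in most plant tissues, and an artificial microRNA, an engineered small RNA directed at selected transcripts: ATR1_like_miR (2), MYB28_like_miR (2) and wild type (WT_miR, 2). MYB28, MYB29 and MYB76 are known as activators of aliphatic glucosinolate synthesis and ATR1 and MYB51 as activators of indole glucosinolate synthesis. The labels give neither the promoter of the overexpression lines nor the accession of the wild type, nor do they say how many transgenic lines were used or whether replicates were grown separately, so the spread between arrays may be technical in part. For MYB28_like_miR replicate 2 the source field names a 35S:ATR1 plant, and the title was followed.

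Plant lipid transfer proteins are small secreted proteins whose conserved cysteines brace a cavity for fatty acids and other lipids. In the EARLI1 type this domain follows a proline-rich stretch. EARLI1 takes its name from early induction by aluminium, and AZI1, its neighbour on the chromosome, from induction by azelaic acid, a signal that primes leaves for systemic defence. On chromosome 4, AZI1, EARLI1, AT4G12490, AT4G12500, AT4G12510 and AT4G12520 follow each other in this order in the gene table, with AT4G12485 between EARLI1 and AT4G12490 and AT4G12495 between AT4G12490 and AT4G12500. AT5G55450 lies on chromosome 5, next to AT5G55460, another gene of the lipid transfer protein lists. Genes in such a row can be alike in sequence, and how far their probe sets cross-hybridise was not tested.

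Signals are MAS5 values, a linear brightness per probe set that the authors scaled to a common mean on every array. Medians lay between 78.4 and 106.4, and signals under an array's 20th percentile (12.4 to 19.1) were treated as at the floor, with no order among them. Pearson's r between log2 signals of replicates, over probe sets, lay between 0.911 and 0.986. RCA, the Rubisco activase of green tissue, had signals of 7056 to 13671, at percentile 99.75 or above on each array. Few of the root and seed genes listed as a check had a probe set named in the array annotation used here, and their levels are not given. In bulk tissue such as this, fewer cells of a type and less RNA per cell cannot be told apart. With 2 or 3 arrays a group, precision is low throughout. The median of 69 plastid-encoded probe sets differed widely between arrays and is given below where it moves with a member.

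AT5G55450 was lower on all 8 overexpression arrays than on any of the 7 wild type arrays. The share of all probe sets apart in this way was not counted, and the member was chosen with these levels known, so this is a description alone. Wild type signals ran from 339.1 to 1865 with a median of 671.3, and overexpression signals from 3.95 to 220.3 with a median of 154.5. The 4 microRNA arrays, from 325.8 to 538.3, lay mostly within the wild type range.

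In the MYB29 and MYB76 experiment the wild type signals of AT5G55450 were 753.4, 508.2 and 339.1. The signals were 174.3 and 165.0 in MYB29_OE, and 157.6 and 138.6 in MYB76_OE. The replicates of each line were close to each other, and no line array reached the wild type arrays. On the log2 scale AT5G55450 was lower by -1.58 ± 0.97 (SE) in MYB29_OE and by -1.78 ± 0.97 (SE) in MYB76_OE, or 2.99-fold and 3.43-fold. The SE comes from the spread within all groups together, so the wide spread described next enters it.

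In the ATR1 and MYB51 experiment the differences of AT5G55450 were larger and the replicates far apart. The wild type signals were 486.4 and 1865. ATR1_OE had signals of 151.4 and 3.95, and MYB51_OE of 220.3 and 11.3, so replicate 2 of each line lay at the floor. The log2 changes were -4.45 ± 1.06 (SE), or 21.9-fold, in ATR1_OE and -4.13 ± 1.06 (SE), or 17.5-fold, in MYB51_OE. Among all 15627 probe sets tested, these were the 2nd and the 3rd deepest fitted falls of their comparisons. Without replicate 2 the change was -2.65 in ATR1_OE and -2.11 in MYB51_OE, and without replicate 1 it was -6.25 and -6.14 or deeper, since the array left lies at the floor. The changes over both replicates likewise depend on where the floor is set. The gap between the replicates was itself unusual: a gap as wide as that of AT5G55450 was found for 6 of 15627 probe sets in ATR1_OE and for 4 in MYB51_OE. AT5G55450 was the single probe set tested that was at least 8-fold lower in replicate 2 than in replicate 1 in both lines.

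In the microRNA experiment AT5G55450 had signals of 671.3 and 718.7 in wild type. The signals were 341.2 and 325.8 in ATR1_like_miR and 538.3 and 514.5 in MYB28_like_miR, both below wild type without overlap. The log2 changes were -1.06 ± 1.06 (SE) and -0.40 ± 1.06 (SE). Both were about as large as their SE or smaller, although the replicates of these groups were close.

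The order of AT5G55450 by mean log2 signal ran from WT_ATR1_MYB51 (9.90 ± 1.37, SD, n = 2) over WT_miR (9.44 ± 0.07, SD, n = 2), MYB28_like_miR (9.04 ± 0.05, SD, n = 2) and WT_MYB29_MYB76 (8.98 ± 0.58, SD, n = 3) to ATR1_like_miR (8.38 ± 0.05, SD, n = 2). MYB29_OE (7.41 ± 0.06, SD, n = 2), MYB76_OE (7.21 ± 0.13, SD, n = 2), MYB51_OE (5.77 ± 2.85, SD, n = 2) and ATR1_OE (5.44 ± 2.54, SD, n = 2) followed. Arrays of neighbours in this order overlapped except between WT_miR and MYB28_like_miR, between ATR1_like_miR and MYB29_OE, and between MYB29_OE and MYB76_OE. Of these pairs, the share of all probe sets apart was counted for WT_miR and MYB28_like_miR alone and is given below. The order mixes experiments, whose wild types can differ, and is a description alone.

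**Figure D1:**
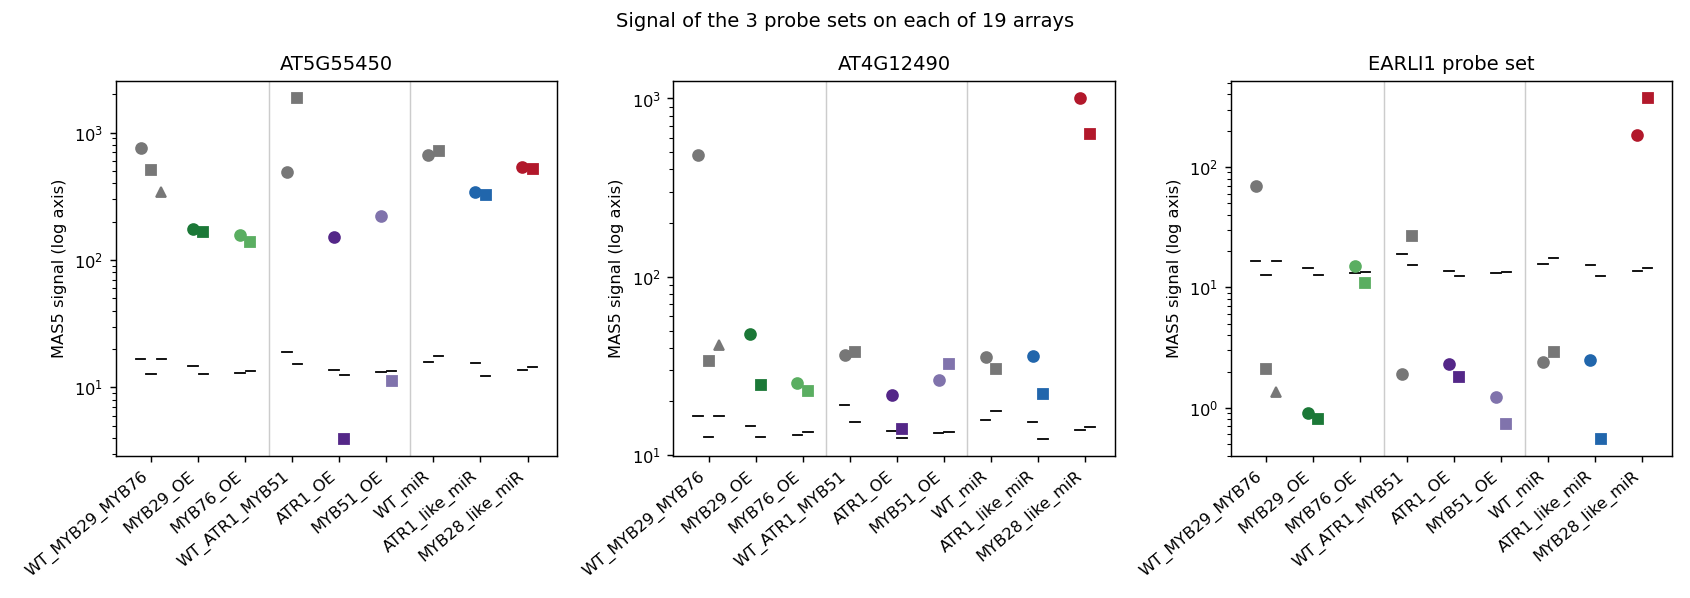
MAS5 signal (log axis) of AT5G55450, AT4G12490 and the EARLI1 probe set on each of 19 arrays, by group; circles are replicate 1, squares replicate 2 and triangles replicate 3, short black bars mark each array's floor, and grey lines separate the 3 experiments. AT5G55450 is lower on the overexpression arrays than on wild type arrays, while AT4G12490 and the EARLI1 probe set are highest on the 2 MYB28_like_miR arrays and next highest on WT_MYB29_MYB76 replicate 1.

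AT4G12490 had a low signal on most arrays and a high one in MYB28_like_miR. MYB28_like_miR had signals of 1005 and 635.4, against 35.3 and 30.3 in its wild type and 36.0 and 22.2 in ATR1_like_miR. Both MYB28_like_miR arrays lay above every other array of the series. The log2 change against wild type was 4.61 ± 0.84 (SE), or 24.4-fold, the 38th highest of 15627. ATR1_like_miR differed from MYB28_like_miR by -4.82 ± 0.84 (SE), or 28.3-fold, the lowest fitted value of that comparison.

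Outside MYB28_like_miR, AT4G12490 was high on 1 array. In WT_MYB29_MYB76 the signals were 479.4, 33.8 and 41.3, so replicate 1 stood apart from the other two by 3.68 on the log2 scale. A difference as high between these arrays was found for 7 of 15627 probe sets. AT4G12490 passed the filter on low signals, the 40th percentile of an array on at least 2 arrays, through this array and the MYB28_like_miR arrays alone.

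In the overexpression lines the signals of AT4G12490 were between 14.1 and 47.6. MYB29_OE had 47.6 and 24.9 and overlapped its wild type, and MYB76_OE had 25.3 and 23.0 and did not. The log2 changes were -1.34 ± 0.77 (SE) in MYB29_OE and -1.86 ± 0.77 (SE) in MYB76_OE, but -0.12 and -0.63 without WT_MYB29_MYB76 replicate 1. In the second experiment the wild type had 36.7 and 38.0, ATR1_OE 21.7 and 14.1, and MYB51_OE 26.4 and 32.4, all below wild type. The log2 changes were -1.10 ± 0.84 (SE) and -0.35 ± 0.84 (SE). All of these signals lay under their array's 40th percentile.

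The groups of AT4G12490 that followed MYB28_like_miR (9.64 ± 0.47, SD, n = 2, on the log2 scale) in order were WT_MYB29_MYB76 (6.45 ± 2.13, SD, n = 3), WT_ATR1_MYB51, MYB29_OE, WT_miR, MYB51_OE, ATR1_like_miR, MYB76_OE and ATR1_OE (4.13 ± 0.44, SD, n = 2). Neighbours overlapped in this order except MYB28_like_miR with WT_MYB29_MYB76 and MYB76_OE with ATR1_OE. Both of these pairs cross experiments, and the share of all probe sets apart between them was not counted.

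The EARLI1 probe set lay at the floor on 14 of 19 arrays and was high in the same places as AT4G12490. MYB28_like_miR had signals of 185.3 and 373.5. Its wild type had 2.41 and 2.89 and ATR1_like_miR 2.49 and 0.553, all at the floor. The log2 change in MYB28_like_miR was at least 3.98 ± 0.62 (SE), or at least 15.8-fold, and ATR1_like_miR was at least 19.1-fold lower than MYB28_like_miR. In WT_MYB29_MYB76 the signals of the EARLI1 probe set were 70.1, 2.11 and 1.35, with replicate 1 alone above the floor.

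The other arrays on which the EARLI1 probe set exceeded the floor were WT_ATR1_MYB51 replicate 2 with 26.8 and MYB76_OE replicate 1 with 15.0. MYB76_OE replicate 2 had 10.8, and the MYB29_OE arrays had 0.911 and 0.807. The signals were 2.31 and 1.80 in ATR1_OE, 1.23 and 0.730 in MYB51_OE, and 1.92 in WT_ATR1_MYB51 replicate 1. In the order of the EARLI1 probe set, MYB28_like_miR (8.04 ± 0.71, SD, n = 2, log2) stood apart, and the other 8 groups, from 4.62 ± 1.32 (SD, n = 3) in WT_MYB29_MYB76 to 3.71 ± 0.09 (SD, n = 2) in ATR1_OE, overlapped their neighbours. This order too mixes experiments, and the share of all probe sets apart between MYB28_like_miR and WT_MYB29_MYB76 was not counted. Like AT4G12490, this probe set passed the filter through both MYB28_like_miR arrays and WT_MYB29_MYB76 replicate 1 alone.

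**Figure D2:**
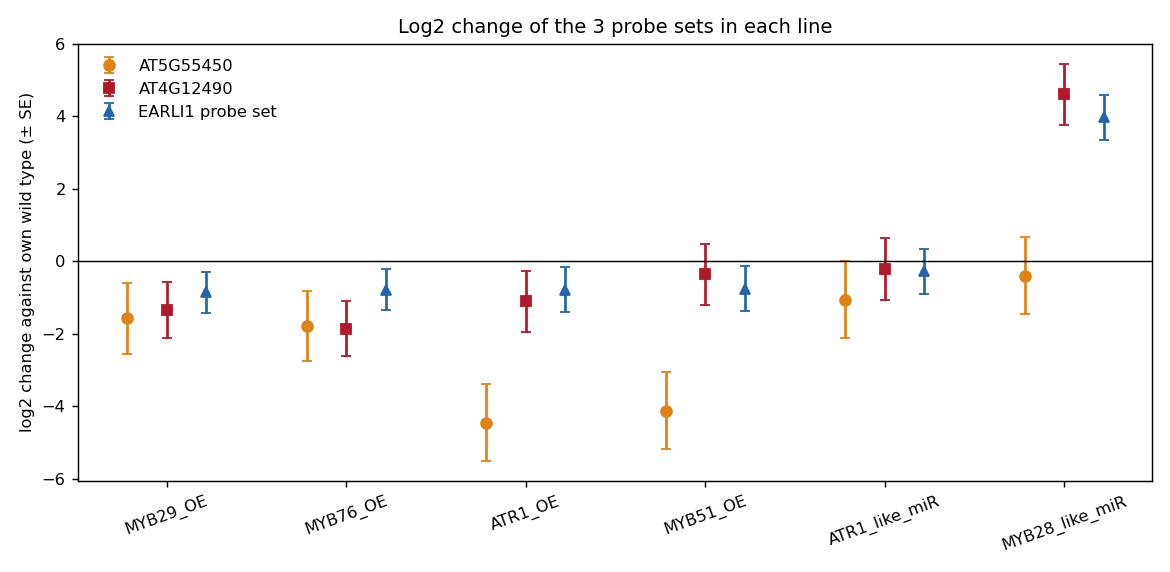
Log2 change (± SE from the fit) of AT5G55450, AT4G12490 and the EARLI1 probe set in each of the 6 lines against the wild type of its own experiment; the 2 lines of an experiment share their wild type arrays. AT4G12490 at 4.61 and the EARLI1 probe set at 3.98 stand out in MYB28_like_miR, and AT5G55450 at -4.45 and -4.13 in ATR1_OE and MYB51_OE.

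Of the 3 members, limma at an adjusted p under 0.05 called 2 higher in MYB28_like_miR, where it called 2.06% of all probe sets tested higher and 4.37% lower. It called 1, AT5G55450, lower in ATR1_OE, where 9.62% of all were called lower and 5.54% higher. Between the microRNA lines it called 1, the EARLI1 probe set and not AT4G12490, lower in ATR1_like_miR than in MYB28_like_miR, where 0.0256% of all were called lower. No member was called in the other comparisons. Several of these calls came and went with the setting. Under the alternatives AT5G55450 was called in ATR1_OE in 11 of 14, in MYB51_OE in 3 of 14, in ATR1_like_miR in 1 of 14 and in MYB29_OE and MYB76_OE in 1 of 15 each. AT4G12490 was called in MYB76_OE in 2 of 14 and between the microRNA lines in 2 of 12, and the EARLI1 probe set between the microRNA lines in 7 of 12. The calls of AT4G12490 and the EARLI1 probe set in MYB28_like_miR were made in 14 of 14. In the comparisons without a member called, limma called 8.09% of all higher and 6.63% lower in MYB29_OE, 7.15% and 5.61% in MYB76_OE, 0.889% and 0.486% in MYB51_OE, and 0.87% and 1.15% in ATR1_like_miR, and in either direction 0.0256% between MYB29_OE and MYB76_OE and 2.67% between ATR1_OE and MYB51_OE. The arrays of a line lay all below those of its wild type for 19% of all probe sets in MYB29_OE, 20.8% in MYB76_OE, 35.8% in ATR1_OE, 22.3% in MYB51_OE, 32.0% in ATR1_like_miR and 36.3% in MYB28_like_miR, and all above for 19% in MYB28_like_miR. These comparisons may have served to choose the members, so nothing is read from the counts.

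Over the 19 arrays the log2 signals of AT4G12490 and the EARLI1 probe set correlated with Pearson's r = 0.945, and with r = 0.912 over the 17 arrays left without MYB28_like_miR. AT5G55450 correlated with AT4G12490 at r = 0.402 and with the EARLI1 probe set at r = 0.376, or 0.422 and 0.485 over the 17 arrays. The arrays share their experiments and groups, and in both chromosome 4 members 3 arrays hold nearly all of the range. Both members passed the filter through these 3 arrays alone, so part of their likeness was built in. Of the 17 arrays the EARLI1 probe set lay at the floor on 14, and WT_MYB29_MYB76 replicate 1 was the highest for both members. The r of 0.912 is therefore no separate check of the likeness.

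The plastid-encoded signal moved with AT4G12490 and the EARLI1 probe set in part. Its median on the log2 scale was 10.34 and 9.25 in MYB28_like_miR and 4.64 and 5.47 in WT_miR, and at 11.26 WT_MYB29_MYB76 replicate 1 had the highest of all 19 arrays. In ATR1_like_miR it was 9.82 and 10.86, as high as in MYB28_like_miR, while AT4G12490 had signals of 36.0 and 22.2 and the EARLI1 probe set lay at the floor. In WT_MYB29_MYB76 replicates 2 and 3 it was 9.92 and 8.01 with AT4G12490 at 33.8 and 41.3. The arrays with high AT4G12490 all had high plastid-encoded signal, while ATR1_like_miR and WT_MYB29_MYB76 replicates 2 and 3 had it with low AT4G12490. The part of the plastid-encoded signal in the level of AT4G12490 was not tested.

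For AT5G55450 the plastid-encoded signal was high in WT_MYB29_MYB76, at 11.26, 9.92 and 8.01, and lay between 4.99 and 5.44 in MYB29_OE and MYB76_OE. Its part in that difference was not tested. In the second experiment it was 6.38 and 5.44 in wild type, 5.42 and 5.48 in ATR1_OE and 5.29 and 5.96 in MYB51_OE, where the ranges of the lines and wild type overlapped. In the microRNA experiment the lower AT5G55450 came with the higher plastid-encoded signal: WT_miR had 4.64 and 5.47 with AT5G55450 at 671.3 and 718.7, and ATR1_like_miR had 9.82 and 10.86 with AT5G55450 at 341.2 and 325.8.

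**Figure D3:**
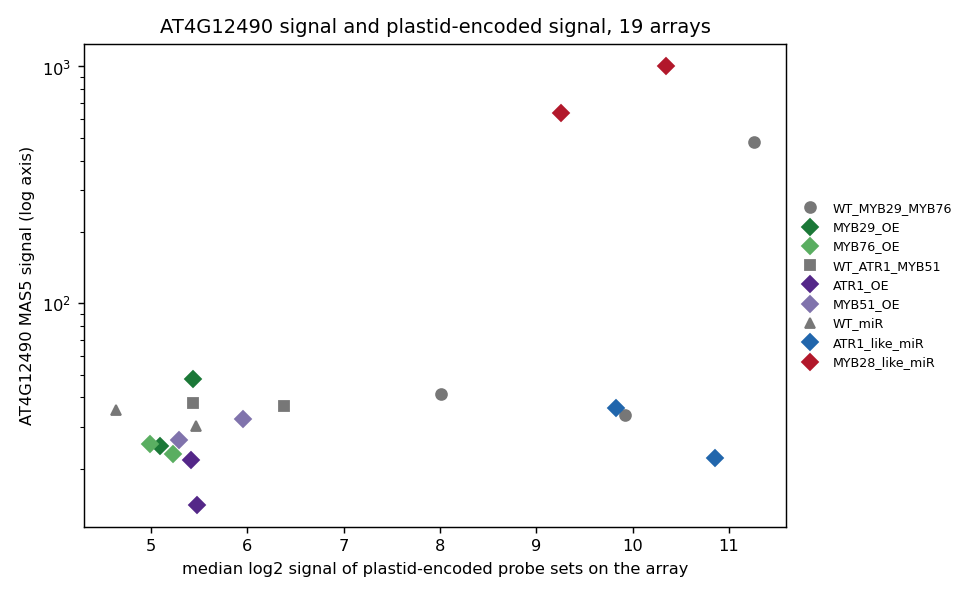
AT4G12490 signal (log axis) against the median log2 signal of 69 plastid-encoded probe sets, 1 point per array for 19 arrays, with grey points for wild type. The MYB28_like_miR arrays and WT_MYB29_MYB76 replicate 1 are high on both axes, and the ATR1_like_miR arrays are high in plastid-encoded signal alone.

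The named genes most like the chromosome 4 members over the 19 arrays began with their neighbour AT4G12500, the next EARLI1 type gene along the chromosome. AT4G12500 correlated with the EARLI1 probe set at r = 0.971 and with AT4G12490 at r = 0.877. The EARLI1 probe set lay at the floor on 14 arrays and AT4G12500 on 10. Where both did, both took that array's floor as their value, so their r, with or without MYB28_like_miR, is in part that of the floors. AT4G12500 also passed the filter through the MYB28_like_miR arrays alone, so part of the likeness was built in. Its signals were 99.8 and 194.5 in MYB28_like_miR against 15.6 and 17.3, both at the floor, in WT_miR and 12.6 and 2.94 in ATR1_like_miR. On all other arrays AT4G12500 lay between 3.56 and 32.1, with that highest value again on WT_MYB29_MYB76 replicate 1.

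The next most like AT4G12490 were AT1G55265 (r = 0.767), AT1G33810 (0.756), AT3G18250 (0.752) and AT2G22425 (0.735). Of these, AT3G18250 reached the 40th percentile on 2 arrays alone. Its mean signals of 5.29 in MYB29_OE and 5.56 in MYB76_OE lie under the floors of those arrays, so its r rests in part on floor values. Those next most like the EARLI1 probe set were AT1G33810 (0.796), AT1G55265 (0.777), the defensin family gene PDF1.4 (0.777) and AT1G17860 (0.762). PDF1.4 had a mean signal of 165.9 in MYB28_like_miR and 24.97 in WT_miR, and AT1G17860 of 509.9 and 185.4. Without the MYB28_like_miR arrays these correlations were weaker, between 0.27 and 0.60, and that of AT4G12500 was 0.680 with AT4G12490 and 0.821 with the EARLI1 probe set. The genes that ran most against AT4G12490 were AT3G58530 (-0.852) and AT5G05550 (-0.814), and against the EARLI1 probe set AT3G13070 (-0.850) and AT1G05380 (-0.837). Without the MYB28_like_miR arrays the former were -0.779 and -0.708 and the latter -0.171 and -0.363.

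The genes most like AT5G55450 were others: AT2G30620 (r = 0.845), AT3G16530 (0.832), AT1G49560 (0.831), the methionine sulfoxide reductase gene MSRB9 (0.828) and AT4G27510 (0.816). MSRB9 had a mean signal of 86.5 in WT_ATR1_MYB51 and of 12.99 in ATR1_OE, the latter near the floors of 13.7 and 12.5 of those arrays and so not a measured level. AT2G32560 (-0.842) and AT1G02890 (-0.836) ran most against it. Without the MYB28_like_miR arrays these correlations lay between 0.811 and 0.845, or at -0.836 and -0.864. AT5G55450 is not extreme on those arrays, so leaving them out could change little. Its lowest log2 values, 3.64 in ATR1_OE replicate 2 and 3.76 in MYB51_OE replicate 2, are the floors of these arrays and hold much of its range. Their part in each r was not tested.

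Of the genes within 5 places of AT5G55450 along the chromosome, AT5G55400 alone had a probe set that was named and tested. It had log2 changes of -1.32 in ATR1_OE, -0.42 in MYB51_OE and between 0.00 and 0.18 in size in the other lines. Around the chromosome 4 members the named probe sets were those of the row itself. AT4G12530, at its end, had signals of 11.3 to 41.1 and was under the filter on every array.

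The wider family was followed through 4 lists of lipid transfer protein genes. Apart from the members, 42 of the listed genes had a named probe set and 23 passed the filter on low signals. Of these 23, 5 rose in MYB28_like_miR and 3 in ATR1_like_miR, and none fell. AT4G12500 and AT2G18370 passed the filter through the MYB28_like_miR arrays alone, and without them 4 of 21 rose in MYB28_like_miR, with a median log2 change of 0.74. With wild type from the other experiments as control 7 rose there, but of the 5 only AT4G12500 was among them. In MYB29_OE 3 fell and in MYB76_OE 2, and none rose. In ATR1_OE 2 rose and 1 fell. In MYB51_OE limma called 0, with 2 at an unadjusted p under 0.05 and 0 to 6 called under the alternatives. The shares called over all probe sets are those given for the members. The median log2 change over the 23 was 0.87 in MYB28_like_miR (all tested -0.14), 0.15 in ATR1_like_miR (-0.10), -0.49 in MYB29_OE (0.06), -0.49 in MYB76_OE (0.05), 0.14 in ATR1_OE (-0.13) and 0.02 in MYB51_OE (-0.07).

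In the EARLI1 type list, 7 genes other than the members were measured. Of the 6 left without AT4G12500, 3 rose in MYB28_like_miR. AT4G12500 was higher there by at least 8.36-fold (log2 at least 3.06 ± 0.46, SE), a value given as a description, since it passed the filter through these 2 arrays alone and so had to differ. AT1G62510 had a mean of 58.2 ± 0.92 (SD, n = 2) in wild type and 322.8 ± 106 (SD, n = 2) in the line, a 5.40-fold rise (limma adjusted p = 0.00317). AT2G45180 had 1633 ± 293 (SD, n = 2) and 5589 ± 295 (SD, n = 2), a 3.45-fold rise (limma adjusted p = 4.61e-06). AT2G10940 had 1948 ± 271 (SD, n = 2) and 4828 ± 253 (SD, n = 2), a 2.49-fold rise (limma adjusted p = 0.000783). The other 3, AT1G62500, AT4G22460 and AT1G12100, were not called in any line.

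AT2G45180 and AT2G10940 also rose in ATR1_like_miR, 2.58-fold to 4179 ± 224 (SD, n = 2; limma adjusted p = 0.000109) and 2.03-fold to 3936 ± 141 (SD, n = 2; limma adjusted p = 0.00714). AT2G10940 lost that call without WT_miR replicate 1 or either ATR1_like_miR array. WT_miR was the lowest of the wild types for both genes, and AT2G45180 had a mean of 7137 ± 609 (SD, n = 3) in WT_MYB29_MYB76 and 4770 ± 363 (SD, n = 2) in WT_ATR1_MYB51. With wild type from the other experiments as control, the log2 change of AT2G45180 was -0.54 in ATR1_like_miR and -0.12 in MYB28_like_miR, in place of 1.37 and 1.79. That of AT2G10940 was -0.35 and -0.058, and that of AT1G62510 -0.011 in MYB28_like_miR. With the same control the changes in MYB28_like_miR were 3.68 for AT4G12490, 3.47 for the EARLI1 probe set and 2.79 for AT4G12500, all of which passed the filter mainly or wholly through MYB28_like_miR, so that low signals on the other arrays were built in.

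In the overexpression lines AT2G45180 fell by 0.88 ± 0.14 (SE) on the log2 scale in MYB29_OE (limma adjusted p = 0.00106) and by 0.89 ± 0.14 (SE) in MYB76_OE (limma adjusted p = 0.000894). It rose by 0.65 ± 0.15 (SE) in ATR1_OE (limma adjusted p = 0.0104), a call lost with quantile normalization and without WT_ATR1_MYB51 replicate 1 or ATR1_OE replicate 1. AT1G62510 fell 2.69-fold in MYB29_OE (limma adjusted p = 0.0202), a call lost without WT_MYB29_MYB76 replicate 1 or MYB29_OE replicate 2. With wild type from the other experiments as control, AT2G45180 was higher by 0.48 in MYB29_OE and 0.47 in MYB76_OE, and AT1G62510 by 0.46 in MYB29_OE.

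Of the type 1 lipid transfer protein genes, the classical family with LTP1 as its best known member, 2 of 12 were measured. AT5G01870 had 722.3 ± 317 (SD, n = 3) in WT_MYB29_MYB76 and 196.9 ± 51.3 (SD, n = 2) in MYB29_OE, a 3.48-fold fall (limma adjusted p = 0.009), a call lost without either MYB29_OE array. The call was also lost with all 7 wild type arrays as control, at a log2 change of -1.14, and with wild type from the other experiments, at -0.64. The wild type means of AT5G01870 were 722.3, 39.2 and 2498 in the 3 experiments, a wider range than that between any line and its own wild type.

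Of the GPI-anchored proteins, which a lipid anchor holds at the outer face of the plasma membrane, 7 of 29 genes were measured. In ATR1_OE AT1G62790 rose 2.01-fold (limma adjusted p = 0.0339; lost without replicate 1 of ATR1_OE or of WT_ATR1_MYB51, and a log2 change of -0.14 with wild type from the other experiments) and AT2G44300 fell 2.43-fold (limma adjusted p = 0.0058; lost without ATR1_OE replicate 1). Among the other family genes, AT5G48490 rose 2.07-fold in MYB28_like_miR (limma adjusted p = 0.0025) and 1.68-fold in ATR1_like_miR (limma adjusted p = 0.0331), and fell 1.42-fold in MYB76_OE (limma adjusted p = 0.0425). The last 2 calls were lost without any 1 array of the line or its wild type. With that control its log2 change was -0.0016 in MYB28_like_miR, -0.30 in ATR1_like_miR and 0.29 in MYB76_OE.

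Between lines of an experiment the single listed gene called was AT4G12500, at least 10.1-fold lower in ATR1_like_miR, with both arrays at the floor, than in MYB28_like_miR. It was tested only because it is high in MYB28_like_miR, so this difference too is a description, and the call was lost without either ATR1_like_miR array.

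**Figure D4:**
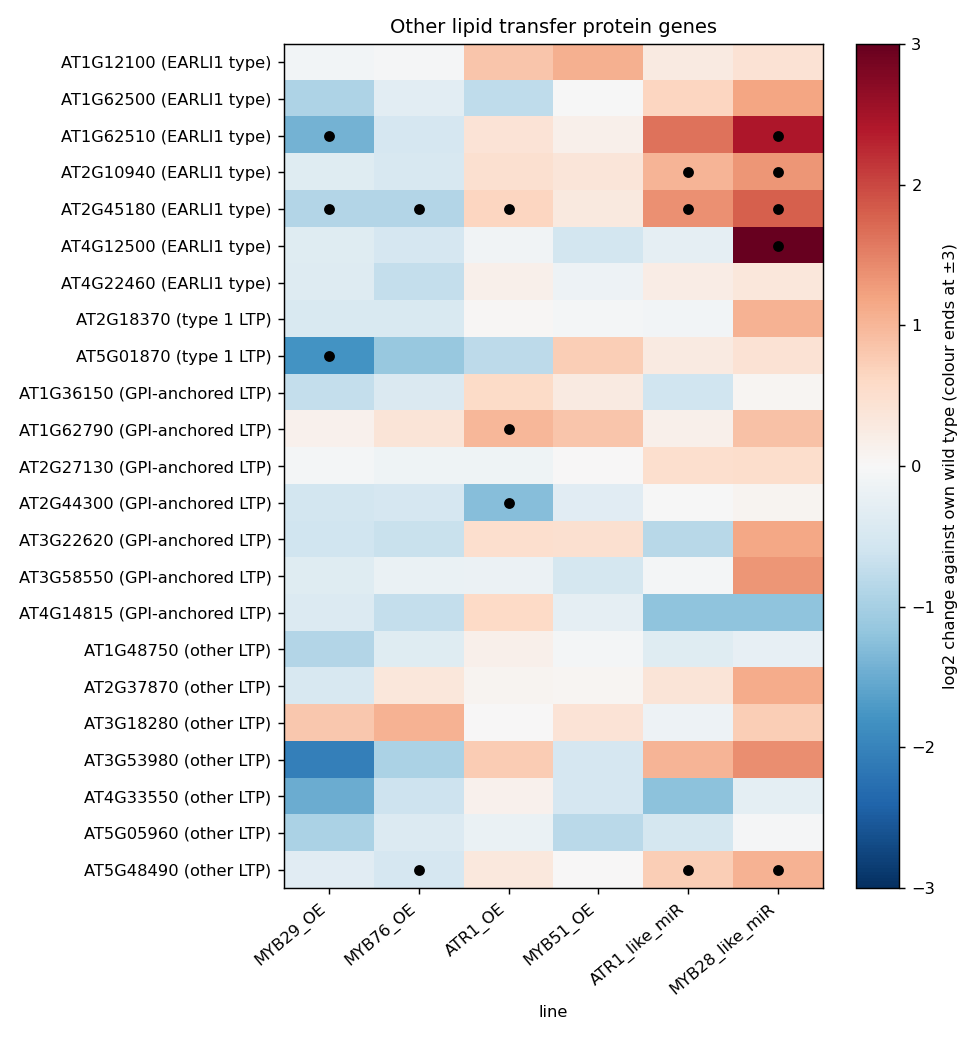
Log2 change against the own wild type (colour, ending at ±3) of the 23 measured lipid transfer protein genes other than the members, in 6 lines; black dots mark a limma adjusted p under 0.05. The MYB28_like_miR column holds 5 dots, 4 of them in EARLI1 type genes with AT4G12500, which had to differ, among them, and the MYB51_OE column none.

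EARLI1 is known to respond to cold, and 4 of 16 genes of a cold response list were measured. COR47, a dehydrin, fell by 1.30 ± 0.38 (SE) on the log2 scale in MYB29_OE (limma adjusted p = 0.0337), and LTI30, another dehydrin, rose 12.1-fold in MYB76_OE (limma adjusted p = 0.0266). COR47 lost its call without MYB29_OE replicate 2 or WT_MYB29_MYB76 replicate 1 or 2, and LTI30 without either MYB76_OE array or WT_MYB29_MYB76 replicate 3. In MYB28_like_miR limma called 0 of the 4, with 1 at an unadjusted p under 0.05. Their median log2 change there was 2.07, with 3 higher and 1 lower. LTI30 was 13.2-fold higher (limma adjusted p = 0.0501), and COR47 changed by -0.45 ± 0.42 (SE) on the log2 scale. The shares called over all probe sets are those given for the members. None of the 24 genes listed for systemic acquired resistance, AZI1 and DIR1 among them, had a probe set named in the array annotation used here. That annotation left 8794 probe sets unlisted, so the array may still measure these genes. EARLI1 is also on this list, and its probe set was taken from the choice of members.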

How the data were processed

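The deposited values are MAS5 signals, a linear intensity per probe set, which the authors summarised with MAS5 per the submitters' processing notes. Each array has a mean of 250 after removal of the outer values, as the deposited values show, and no version, detection call or scan date is given in the sources used here. Signals under each array's 20th percentile were raised to it before log2. Probe sets at or above the 40th percentile on at least 2 arrays were tested, 15627 of 22746 left after 64 control probe sets. A single model that gave each of the 9 groups its own mean covered the 19 arrays (limma 3.58.1 under R 4.3.3; eBayes used a trend), leaving 10 residual and 5.62 prior degrees of freedom. Two-sided p-values were adjusted for all tested probe sets together (Benjamini-Hochberg), with calls at an adjusted p under 0.05. Alternatives changed the floor, filter, scaling, trend, control arrays or replicate block, or left out 1 array. The fit was tested on simulated data.

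Names come from the array annotation and RefSeq genes of TAIR10.1: 13513 probe sets had 1 gene, 503 several and 8794 were not listed. Members and lists were chosen with earlier results of these data known. The rule for names took the members, the measured EARLI1 type genes, called genes of the other lists (at most 4, or 3 for cold and resistance, per comparison), and for each member the 5 named genes with the highest and the 2 with the lowest Pearson r. Python 3.11.15 and matplotlib 3.10.9 made the figures. Sequences were not used here.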

Additional observations from a re-analysis of the deposited data

How the results depend on the processing

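The array numbers limit every comparison: groups held 2 or 3 arrays, and signals near the floor fix neither a level nor an order. For AT4G12490 and the EARLI1 probe set the rise in MYB28_like_miR kept its direction in every alternative run, as did the fall of AT5G55450 in ATR1_OE and MYB51_OE. The members were chosen with these levels known. AT4G12490 and the EARLI1 probe set also passed the filter mainly through MYB28_like_miR, so low signals in WT_miR were built in. Nothing is therefore read from the constant direction. The other changes of AT4G12490 and the EARLI1 probe set did not keep their size. With wild type from the other experiments as control, an alternative chosen after seeing the data, AT4G12490 changed by -0.022 in MYB29_OE and -0.53 in MYB76_OE. With the floor at the 10th percentile the EARLI1 probe set changed by -1.53, 0.25, -1.68, -1.65 and 5.84 in MYB29_OE, MYB76_OE, ATR1_OE, MYB51_OE and MYB28_like_miR, and with log2(signal + 16) by -0.058 in MYB76_OE. Leaving out 1 array at a time gave -2.03 to -0.12 (MYB29_OE) and -2.54 to -0.63 (MYB76_OE) for AT4G12490, -6.25 to -2.65 (ATR1_OE) and -6.14 to -2.11 (MYB51_OE) for AT5G55450, and -1.33 to -0.10 (MYB29_OE) and -1.26 to -0.030 (MYB76_OE) for the EARLI1 probe set. The cause was not tested.

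Of the lipid transfer protein genes other than the members, 3 were called in MYB29_OE, 2 in MYB76_OE, 3 in ATR1_OE, 0 in MYB51_OE, 3 in ATR1_like_miR, 5 in MYB28_like_miR and 1 between the microRNA lines. With all 7 wild type arrays as control these were 1 (MYB29_OE), 0 (MYB76_OE), 8 (ATR1_OE) and 6 (MYB51_OE), and with wild type from the other experiments 0, 1, 8 and 6, and 5 in ATR1_like_miR. In MYB28_like_miR both of these controls gave 7, but with only 2 of the 5 genes among them for all 7 arrays and 1 for the other experiments, and the remaining alternatives gave 4 to 6, with at least 4 of the 5. Quantile normalization gave 1 in MYB76_OE and 1 in MYB51_OE, no filter 1 in MYB76_OE and 6 in ATR1_OE, and eBayes without the trend 1 in MYB76_OE. The same experiment's arrays alone gave 1 in ATR1_OE and 0 between the microRNA lines, where the floor at the 10th percentile and the filter at the 60th percentile also gave 0. Leaving out 1 array at a time gave 1 to 5 (MYB29_OE), 1 to 2 (MYB76_OE), 0 to 4 (ATR1_OE), 1 to 2 (ATR1_like_miR) and 0 between the microRNA lines. With wild type from the other experiments the changes of AT1G62510 were 0.46 (MYB29_OE) and -0.011 (MYB28_like_miR), and those of AT2G45180 were 0.48 (MYB29_OE), 0.47 (MYB76_OE), -0.54 (ATR1_like_miR) and -0.12 (MYB28_like_miR). Those of AT5G48490 were 0.29 (MYB76_OE), -0.30 (ATR1_like_miR; -0.00094 with all 7) and -0.0016 (MYB28_like_miR), those of AT2G10940 -0.35 and -0.058 in the microRNA lines, and that of AT1G62790 was -0.14 (ATR1_OE).

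Replicate numbers are shared between groups, but no label says that they pair arrays, and the deviations of same-numbered arrays correlated with r from -0.218 to 0.158. With the replicate number as a block, the calls were 4 in MYB29_OE, 1 in MYB76_OE, 3 in ATR1_OE, 0 in MYB51_OE, 4 in ATR1_like_miR, 5 in MYB28_like_miR and 0 between the microRNA lines.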
